A study of Mus musculus with 16 samples.

Results

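Somatic mutations of 10 genes are often found together with a mutation of the kinase gene JAK2 in human myeloid neoplasms, and the RNA of the mouse counterparts of these genes was followed here in blood stem and progenitor cells of mice that carry Jak2V617F. The genes were Tet2, Dnmt3a, Asxl1, Ezh2, Sf3b1, Srsf2, U2af1, Idh1, Idh2 and Trp53. They were chosen as a named list, by symbol and with no measured value of these cells in the rule. Earlier results of these data were known when the list was chosen. They are 10 of the 29806 genes in the tables. All 10 had enough counts to be tested.

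The list joins several kinds of protein. Dnmt3a adds methyl groups to DNA and Tet2 oxidises them. Ezh2 is the enzyme of Polycomb repressive complex PRC2, which methylates histone H3, and Asxl1 is a partner of the Bap1 deubiquitinase, which acts on histone H2A. Sf3b1, Srsf2 and U2af1 choose splice sites. Idh1, in the cytosol, and Idh2, in mitochondria, turn isocitrate into 2-oxoglutarate, a cofactor of the Tet enzymes. Trp53 is the p53 tumour suppressor. In patients, the order in which such mutations and that of JAK2 are acquired is known to go with the course of the disease. In these mice only Jak2 is labelled as mutated, so the values below are the RNA of unmutated genes, as far as the labels say.

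RNA was measured by bulk sequencing in 16 libraries of mouse bone marrow cells, 4 in each of 4 groups. Control HSC were haematopoietic stem cells of mice labelled WT, and mutant HSC were the same cell type from mice labelled Jak2V617F. Control and mutant MPP3 were the corresponding Fcgr-negative MPP3, a myeloid-biased multipotent progenitor lacking the Fc gamma receptor used in the sort. Each library came from 7000 to 10000 cells. The sources used here do not give how the Jak2 allele was made or switched on, the age and sex of the mice, or whether animals were pooled. The labels give a batch that equals the replicate number. They do not say that replicates were separate animals, so p-values measure the spread between these libraries. In such bulk samples, fewer cells of a type and less RNA per cell cannot be told apart.

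The libraries held 33108537 to 41230956 estimated counts over genes, and 14439 to 16522 genes had at least 1 count. Levels are given as CPM (a gene's counts relative to the TMM-scaled library size) when groups are compared, and as TPM (which also divides by effective length) when genes are compared. A change was called at an adjusted p under 0.05 in edgeR, with adjustment over all 14179 genes tested. The sum of 8 HSC markers was 936 to 1054 CPM in control HSC, 511 to 655 in mutant HSC, 327 to 402 in control MPP3 and 242 to 357 in mutant MPP3. The sum of 9 MPP3 and early myeloid markers was 579 to 865 CPM over the HSC libraries and 4368 to 7068 over the MPP3 libraries. Markers of other cells differed between the groups too, and their part in the results below was not tested. The 5 megakaryocyte markers summed to 681 to 941 CPM in control HSC, 868 to 1357 in mutant HSC, 142 to 206 in control MPP3 and 181 to 281 in mutant MPP3, and the 6 erythroid markers to 3725 to 4424, 2981 to 3579, 2242 to 3007 and 1349 to 2458 CPM in the same order. The 4 T and NK markers summed to 63.7 to 93.5, 135 to 173, 335 to 500.4 and 487 to 556 CPM. Of these, Nkg7 was called higher in mutant HSC and in control MPP3 than in control HSC, while Cd3e and Cd3g had no counts in any HSC library. The 6 lymphoid and B markers summed to at most 1.9 CPM in HSC and to 88 to 193 CPM in control MPP3, and the 4 mast and basophil markers to 2.94 to 8.93 CPM in control HSC and 55.3 to 114 in control MPP3. The sum of 24 DNA replication and mitosis genes was 3844 to 4605 CPM in control HSC, 6347 to 8344 in mutant HSC, 6436 to 7361 in control MPP3 and 7599 to 9087 in mutant MPP3. Mutant HSC libraries 1 and 4 were the most alike of all replicate pairs (Pearson r of 0.971 across genes, against at most 0.958 for any other pair), so counts were also taken without both.

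Of the 10 genes, 3 passed the edgeR test in at least 1 comparison: Ezh2, Dnmt3a and Idh2. This is the main fit, which does not use the pairing by batch. With the replicate number as a block, Idh1 and Sf3b1 passed in at least 1 comparison too. Over all genes, that fit called 1394 in mutant HSC, where the main fit called 1035. The shares of all genes called in the main fit are given with each comparison below. The start regions of Ezh2, Dnmt3a and Idh2 are shown because the results of the main fit turn on these genes. The motifs searched there also differ between them. Of 3 Dnmt3a starts, the one at chr12:3806910-3807189, which overlaps the first and holds 7 GC boxes, is not printed. Each sequence runs from 250 bases before to 30 bases after a transcript start in RefSeq (GRCm38.p6), 5′ to 3′ on the gene's strand. Capitals mark matches, on either strand, to an E2F motif (TTTNGCGC or its reverse GCGCNAAA), a CCAAT box (CCAAT or ATTGG) and a GC box (GGGCGG or CCGCCC).
Ezh2, chr6:47595001-47595280, minus strand: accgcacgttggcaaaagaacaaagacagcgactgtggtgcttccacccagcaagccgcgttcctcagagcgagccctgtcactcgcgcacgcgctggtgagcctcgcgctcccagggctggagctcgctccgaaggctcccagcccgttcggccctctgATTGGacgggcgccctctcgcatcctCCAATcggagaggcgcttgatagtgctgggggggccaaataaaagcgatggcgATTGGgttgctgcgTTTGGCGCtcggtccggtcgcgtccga
Dnmt3a upstream start, chr12:3806730-3807009, plus strand: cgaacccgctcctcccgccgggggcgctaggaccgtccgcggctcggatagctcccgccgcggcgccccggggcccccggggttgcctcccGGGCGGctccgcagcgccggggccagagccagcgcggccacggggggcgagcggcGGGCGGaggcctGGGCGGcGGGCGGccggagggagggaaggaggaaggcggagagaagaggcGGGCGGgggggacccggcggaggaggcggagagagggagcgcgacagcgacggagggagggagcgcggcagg
Dnmt3a internal start, chr12:3891494-3891773, plus strand: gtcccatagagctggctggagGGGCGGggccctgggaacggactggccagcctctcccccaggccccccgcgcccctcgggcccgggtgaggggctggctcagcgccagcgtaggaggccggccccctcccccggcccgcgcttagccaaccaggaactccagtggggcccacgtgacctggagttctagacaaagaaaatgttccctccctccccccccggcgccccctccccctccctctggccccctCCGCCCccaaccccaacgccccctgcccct
Idh2, chr7:80115321-80115600, minus strand: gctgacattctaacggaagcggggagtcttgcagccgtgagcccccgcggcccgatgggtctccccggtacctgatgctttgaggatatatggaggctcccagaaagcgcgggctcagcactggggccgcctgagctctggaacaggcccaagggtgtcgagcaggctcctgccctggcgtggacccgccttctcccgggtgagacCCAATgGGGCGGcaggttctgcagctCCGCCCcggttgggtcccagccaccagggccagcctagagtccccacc

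The Ezh2 region held 1 E2F match, which begins 3 bases after the start, and 3 CCAAT boxes. That E2F motif was found in 420 of 32851 mouse promoters of the same length (1.28%), and among the 14 start regions of the 10 genes it was in that of Ezh2 alone. The Dnmt3a upstream start held 5 GC boxes, its internal start 2, and the Idh2 start 2 GC boxes and 1 CCAAT box, with no 2 of these matches sharing a base in the sequences shown. GC boxes were found in 34.7% and CCAAT boxes in 36.1% of promoters. The STAT motif TTCNNNGAA, searched because STAT proteins act below Jak2, was in 7.83% of promoters and in none of the 14 regions. These counts describe letters in a window and not binding.

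In mutant against control HSC, Ezh2 rose in edgeR and no other gene of the list passed its test, nor that of limma-voom. DESeq2 called 4 of 10, with U2af1 (adjusted p = 0.0189), Idh2 (0.0151) and Idh1 (0.0423) beside Ezh2. Over all genes DESeq2 called 1668 here and edgeR 1035. The DESeq2 counts for mutant HSC given below stand beside that larger number. The 1 edgeR call in 10 compares with 7.3% of all genes tested, 4.56% called higher and 2.74% lower. U2af1 and Idh2 were higher in every mutant HSC library than in any control library, with adjusted p-values of 0.0598 and 0.0602 in edgeR. With Ezh2 they make 3 of 10 genes without overlap between the groups, against 14.8% of all genes. Idh1 was lower in the mutant library of all 4 batches, with an adjusted p of 0.0774, and with the replicate number as a block in edgeR it fell by 0.60 (log2, adjusted p = 0.00845). The median log2 fold change of the list was 0.08, and that of all genes -0.06.

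In mutant against control MPP3, none of the 10 genes passed the test in edgeR, DESeq2 or limma-voom, where edgeR called 0.0635% of all genes (0.0141% higher and 0.0494% lower). Only U2af1 had an unadjusted p under 0.05 (1 of 10, against 13.8% of all genes), and no gene of the list was without overlap between the groups, against 7.12% of all genes.

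Between the cell types of control mice, edgeR and limma-voom called Dnmt3a, Ezh2 and Idh2 higher in MPP3 than in HSC, and DESeq2 called Sf3b1 as well (adjusted p = 0.0259). These 3 calls in 10, all upward, compare with 13.6% of all genes called in either direction, 6.67% upward and 6.91% downward. The groups did not overlap for these 3 genes, Sf3b1 and U2af1, 5 of 10 against 19.5% of all genes. The median log2 fold change was 0.29 for the list and -0.01 for all genes, and 8 of the 10 genes had a positive value.

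In mutant mice, no gene of the list passed the edgeR test between MPP3 and HSC, where 8.36% of all genes did (3.69% higher and 4.68% lower). At an unadjusted p under 0.05 there were 4 of 10 (Asxl1, Sf3b1, Idh1 and Idh2, against 20.4% of all genes), and DESeq2 and limma-voom each called 1, Idh2. Tet2, Asxl1, Sf3b1 and Idh2 did not overlap between the groups, 4 of 10 against 13.8% of all genes. The plot of log2 fold changes shows the 4 comparisons side by side. The comparisons share groups, so they are not independent of each other.

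**Figure D1:**
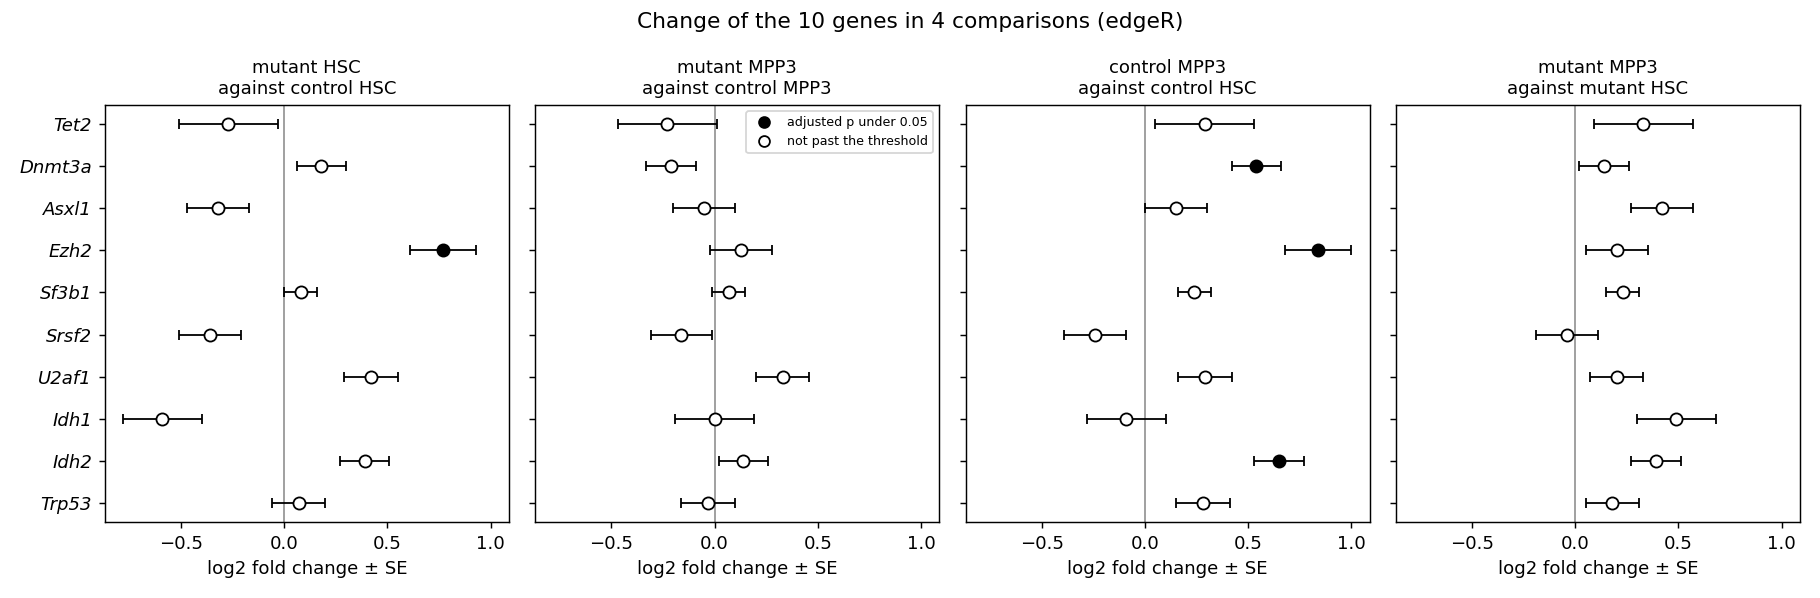
Log2 fold change (horizontal axis) with its standard error in edgeR for the 10 genes in 4 comparisons, 1 panel each; filled points passed an adjusted p of 0.05. Ezh2 is filled in the first panel and Dnmt3a, Ezh2 and Idh2 in the third.

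Whether the mutant effect differed between MPP3 and HSC was tested directly as a difference of differences. No gene of the list was called in edgeR, DESeq2 or limma-voom, and edgeR called 0.0423% of all genes (0.0141% with a positive and 0.0282% with a negative difference). Unadjusted p-values were under 0.05 for 3 of 10 (against 6.93% of all genes): Ezh2 with a difference of -0.64 ± 0.22 (log2, SE, adjusted p = 0.485), Dnmt3a with -0.39 ± 0.17 (adjusted p = 0.679) and Idh1 with 0.59 ± 0.27 (adjusted p = 0.718). A mutant effect particular to HSC is therefore not shown for any of the 10 genes.

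Levels per length set the genes far apart. In control HSC, Trp53 was the highest at 471 ± 22.1 TPM (SD, n = 4) and Tet2 the lowest at 2.37 ± 0.917 TPM. Between them came Idh2 at 231 ± 4.46, Srsf2 at 223 ± 63.3 and U2af1 at 208 ± 8.42 TPM, whose ranges over libraries overlapped from each to the next. Sf3b1 followed at 111 ± 3.53 TPM. Idh1 at 26.6 ± 5.84 and Ezh2 at 21.7 ± 1.96 TPM overlapped as well, and Dnmt3a at 14.5 ± 2.95 and Asxl1 at 8.85 ± 2.02 TPM stood apart from their neighbours in this order.

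The order changed at a few places in the other groups. U2af1 stood above Srsf2 in the means of mutant HSC (279.9 ± 54.7 against 174 ± 32.2 TPM, with overlapping ranges), and in both MPP3 groups it did so without overlap. Ezh2 stood above Idh1 without overlap in mutant HSC (36.0 ± 7.32 against 17.7 ± 4.38 TPM), the reverse of the order of means in control HSC. In control MPP3, Ezh2 (37.1 ± 5.91 TPM) and Dnmt3a (26.9 ± 4.62 TPM) both stood above Idh1 (23.8 ± 2.71 TPM), with overlap between each neighbour. Trp53 was the highest and Tet2 the lowest in all 4 groups, with Idh2 in place 2, Sf3b1 in place 5 and Asxl1 in place 9.

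**Figure D2:**
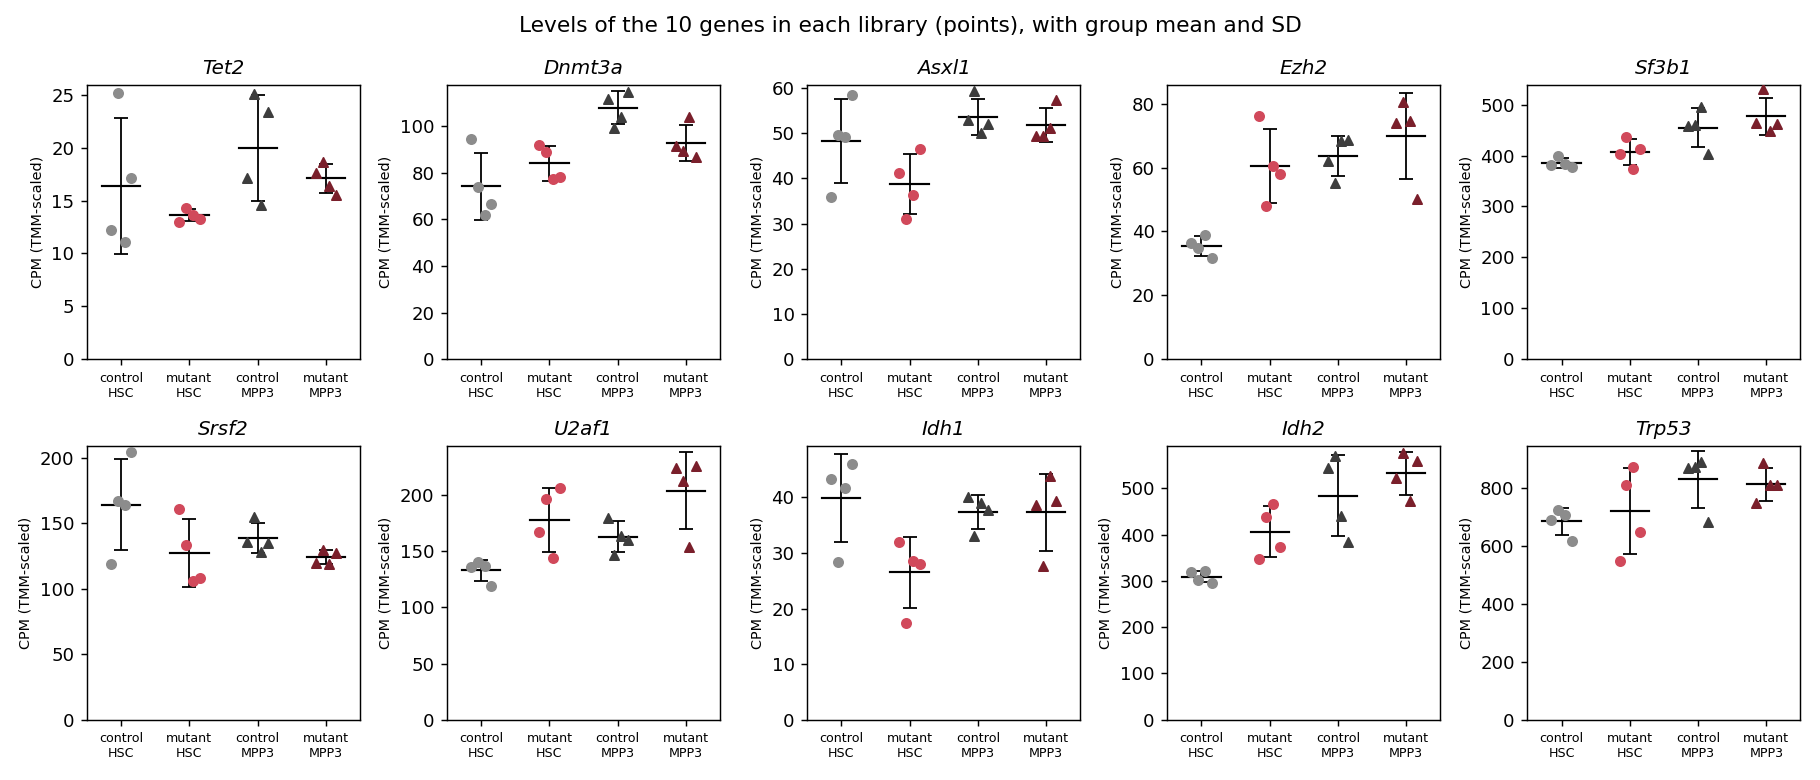
Level of each of the 10 genes (vertical axis, TMM-scaled CPM from 0) in the 16 libraries, with the mean and SD of the 4 libraries of each group. Control HSC are the lowest group for Ezh2, with every library at or below 39.0 CPM, and the spread is widest relative to the mean for Tet2 in control HSC.

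Among the genes that act on DNA methylation, Dnmt3a was measured first. Dnmt3a, the de novo DNA methyltransferase, lies at chr12:3806007-3914443 (GRCm38). It had 94.6, 73.8, 61.8 and 66.6 CPM in control HSC libraries 1 to 4, 92.1, 88.9, 77.2 and 78.1 in mutant HSC, 112, 99.3, 104 and 115 in control MPP3 and 91.4, 89.4, 104 and 86.8 in mutant MPP3. All control MPP3 libraries were above all control HSC libraries, while control HSC library 1 reached the mutant HSC and mutant MPP3 range.

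Dnmt3a rose by 0.54 ± 0.12 (log2, SE) from control HSC to control MPP3, a fold of 1.45 (adjusted p = 0.0068), and it was higher in MPP3 in 4 of 4 batches. It was higher by 0.18 ± 0.12 in mutant HSC (adjusted p = 0.438) and lower by a log2 value of -0.21 ± 0.12 in mutant MPP3 (adjusted p = 0.469). Between the mutant cell types the difference was 0.14 ± 0.12 (adjusted p = 0.597).

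The Dnmt3a gene has widely spaced starts, as the 2 regions printed above show. The Salmon tables give an effective length for each library, which can move with the transcripts found there. What moved it here was not tested. That length was 6505, 7638, 6237 and 5159 bases in control HSC and 5923, 6530, 6014 and 7538 in mutant HSC. It was 3973, 4745, 5608 and 5484 bases in control MPP3 and 4250, 4316, 6116 and 4446 in mutant MPP3. The MPP3 libraries were shorter on average in both genotypes, with overlap (exact permutation p = 0.0857 for each, two-sided, and 0.264 after adjustment over 40 tests of effective length, a family chosen after the values were seen).

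With effective length as an offset in the edgeR model, Dnmt3a was higher in MPP3 by 0.91 in control mice (log2, adjusted p = 0.00115) and by 0.58 in mutant mice (adjusted p = 0.0336). The second of these was not called without the offset. In TPM, which carries the same correction, Dnmt3a was 14.5 ± 2.95 in control HSC, 16.2 ± 3.2 in mutant HSC, 26.9 ± 4.62 in control MPP3 and 23.2 ± 1.93 in mutant MPP3 (SD, n = 4 each). Which transcripts made up the difference was not tested.

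**Figure D3:**
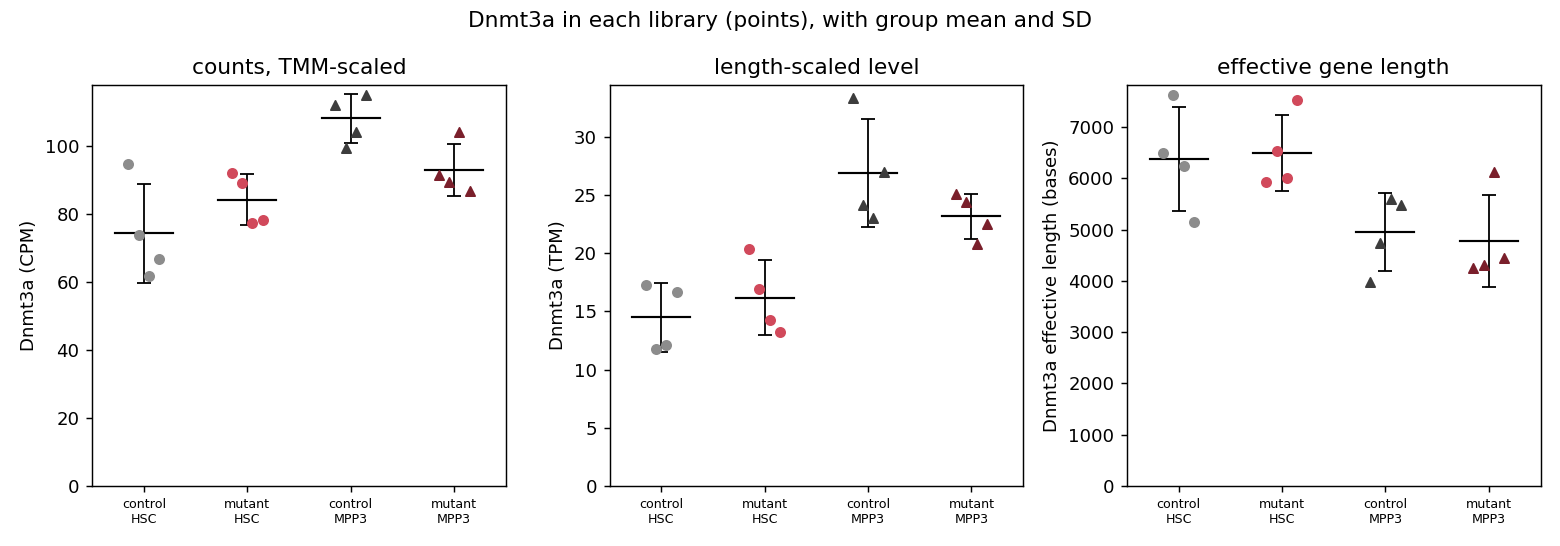
Dnmt3a in the 16 libraries as CPM, as TPM and as effective length in bases (vertical axes from 0), with group mean and SD. The effective length averages 6385 bases in control HSC and 4953 in control MPP3, so the cell types lie further apart in TPM than in CPM.

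Tet2, the dioxygenase that starts the removal of methyl groups, lies at chr3:133463679-133545139 and was the least abundant of the 10. It had 12.2, 25.2, 11.1 and 17.1 CPM in control HSC, 13.0, 14.3, 13.6 and 13.3 in mutant HSC, 17.1, 25.1, 14.6 and 23.4 in control MPP3 and 17.6, 18.7, 16.4 and 15.5 in mutant MPP3. The control libraries spread widely in both cell types and the mutant libraries lay inside that spread.
No comparison of Tet2 passed the test. The log2 fold change was -0.27 ± 0.24 in mutant HSC (adjusted p = 0.575) and -0.23 ± 0.24 in mutant MPP3 (adjusted p = 0.744). Between the mutant cell types every MPP3 library was above every HSC library (0.33 ± 0.24, adjusted p = 0.501).

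Of 17 other tested genes of DNA methylation and demethylation, 4 rose and 1 fell in mutant HSC in edgeR, beside 4.56% of all genes called higher and 2.74% lower. Between control HSC and control MPP3, 5 rose in edgeR (6.67% of all genes did) and none was called lower, while DESeq2, limma-voom and the fit on the compared groups alone called Cxxc5 lower (-0.45 each, adjusted p = 0.0367, 0.0398 and 0.0232). Uhrf1, which recruits the maintenance methyltransferase to newly copied DNA, had 213 to 277 CPM in control HSC and 349 to 489 in mutant HSC and rose by 0.81 ± 0.12 (log2, adjusted p = 0.000624). The maintenance methyltransferase Dnmt1 rose by 0.77 ± 0.15 (adjusted p = 0.00514), and Hells, a chromatin remodeller needed for DNA methylation, rose by 1.36 ± 0.23 (adjusted p = 0.00194). The other called genes were Tdg, the glycosylase that removes oxidised cytosine, which rose by 0.78 ± 0.16, and Cxxc5, a CpG-binding protein, with -0.64 ± 0.15, and both were named after their values were seen. The Cxxc5 call was lost without control HSC library 1 or 2 or mutant HSC library 1, 2 or 4 (adjusted p of 0.0508 to 0.0701). The Tet2 paralogs did not pass the test in mutant HSC, with 0.07 ± 0.24 for Tet1 (adjusted p = 0.926) and 0.21 ± 0.16 for Tet3 (adjusted p = 0.512).

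Ezh2, the PRC2 methyltransferase, lies at chr6:47530139-47595341. It had 36.2, 34.7, 39.0 and 31.8 CPM in control HSC libraries 1 to 4 and 76.0, 48, 60.6 and 58.0 in mutant HSC. In control MPP3 it had 62.1, 55.2, 68.2 and 68.6 CPM and in mutant MPP3 73.9, 80.6, 74.5 and 50.1. The control HSC libraries were close together and lay below all 12 others, whose 3 groups overlapped with each other.

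Ezh2 rose by 0.77 ± 0.16 (log2, SE) in mutant HSC, a fold of 1.71 (adjusted p = 0.00613), and was higher in 4 of 4 batches. From control HSC to control MPP3 it rose by 0.84 ± 0.16, a fold of 1.79 (adjusted p = 0.00144), again in 4 of 4 batches. It differed by 0.13 ± 0.15 between mutant and control MPP3 (adjusted p = 0.784) and by 0.20 ± 0.15 between mutant MPP3 and mutant HSC (adjusted p = 0.54). Without mutant HSC libraries 1 and 4 the value in mutant HSC was 0.62 and the call was lost (adjusted p = 0.102).

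Genes of DNA replication and mitosis rose, as Ezh2 did, from control HSC to mutant HSC and to control MPP3. In mutant HSC 24 of 24 were called higher (4.56% of all genes were), with a median log2 fold change of 0.90 (-0.06 for all genes). Without mutant HSC libraries 1 and 4, 17 of 24 passed the test, where 266 genes passed in all. Between control HSC and control MPP3 19 of 24 were called higher (6.67% of all genes), and 24 of 24 had a positive value (median 0.64, -0.01 for all genes). In mutant against control MPP3 none was called in edgeR and 2 were in DESeq2. There 23 of 24 had a positive value (median 0.33, -0.02 for all genes), and Ezh2 differed by 0.13 ± 0.15. In the difference of the mutant effects, MPP3 minus HSC, 0 of 24 had a positive value (median -0.61, -0.0 for all genes). Ezh2 had -0.64 ± 0.22 there. Of the 24, edgeR called 1 lower in that difference, beside 0.0282% of all genes. Tyms, Tk1 and Cdk1 had the smallest p-values in mutant HSC, with 1.06 ± 0.10, 1.08 ± 0.12 and 1.03 ± 0.12. The part of these genes, or of the share of dividing cells, in the Ezh2 result was not tested. Within groups the plot of Ezh2 against the summed level of the 24 genes shows orders that differ, and these were not tested. Control HSC library 3 had the largest sum of its group, 4605 CPM, and its highest Ezh2, 39.0 CPM. Mutant MPP3 library 4 had the largest sum of all, 9087 CPM, and the lowest Ezh2 of its group.

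**Figure D4:**
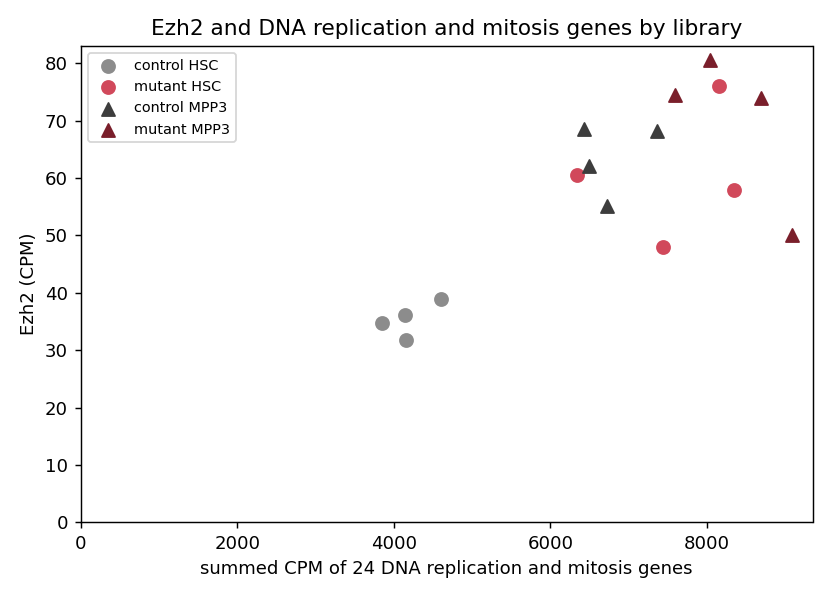
Ezh2 (vertical axis, CPM) against the summed CPM of 24 DNA replication and mitosis genes (horizontal axis), 1 point per library, both axes from 0. The 4 control HSC libraries sit apart at sums of 3844 to 4605 CPM and Ezh2 levels of 31.8 to 39.0 CPM, and the other 12 libraries share 1 cloud.

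Of 12 other tested PRC2 genes, edgeR called none higher and 2 lower in mutant HSC, beside 4.56% and 2.74% of all genes. DESeq2 called 2 higher, Eed among them (0.55, adjusted p = 0.0293), and 2 lower. Ezh1, the paralogous methyltransferase typical of resting cells, had 102, 121, 86.4 and 104 CPM in control HSC and 49.9, 57.3, 72.7 and 63.8 in mutant HSC. It fell by 0.76 on the log2 scale (SE 0.15, adjusted p = 0.00591), with no overlap. Phf1, an accessory subunit, was low, with 13.4 to 18.7 CPM in control HSC and 2.72 to 6.95 in mutant HSC, and it fell by 1.83 (SE 0.35, adjusted p = 0.00477). Without mutant HSC libraries 1 and 4 neither was called (adjusted p = 0.0982 for Ezh1 and 0.0989 for Phf1). Ezh1 and Phf1 fell from control HSC to control MPP3 too (-0.71 ± 0.15 and -1.11 ± 0.35), and Eed, a core subunit named after its value was seen, rose by 0.68 ± 0.18. The Phf1 call there was lost with the replicate number as a block (adjusted p = 0.0602), and without any 1 of the control HSC libraries, control MPP3 library 2, 3 or 4, mutant HSC library 4 or mutant MPP3 library 2 (adjusted p of 0.0502 to 0.104). The Eed call was lost without control HSC library 2 or control MPP3 library 2 (adjusted p = 0.057 and 0.0538).

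Ezh2 and Ezh1 thus moved in opposite directions between the same groups, and per length their order turned. The ratio of Ezh2 to Ezh1 in TPM was 0.699, 0.545, 0.975 and 0.642 in control HSC and 2.78, 1.69, 1.66 and 1.87 in mutant HSC. It was 1.77, 1.42, 2.31 and 2.49 in control MPP3 and 2.64, 2.1, 2.11 and 1.31 in mutant MPP3. Ezh1 was the higher of the pair in every control HSC library and Ezh2 in every other library. The exact two-sided permutation p was 0.0286 for mutant against control HSC and for control MPP3 against control HSC, the smallest that 4 libraries against 4 allow, and 0.0762 after adjustment over 8 tests of ratios, which were chosen after the values were seen.

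**Figure D5:**
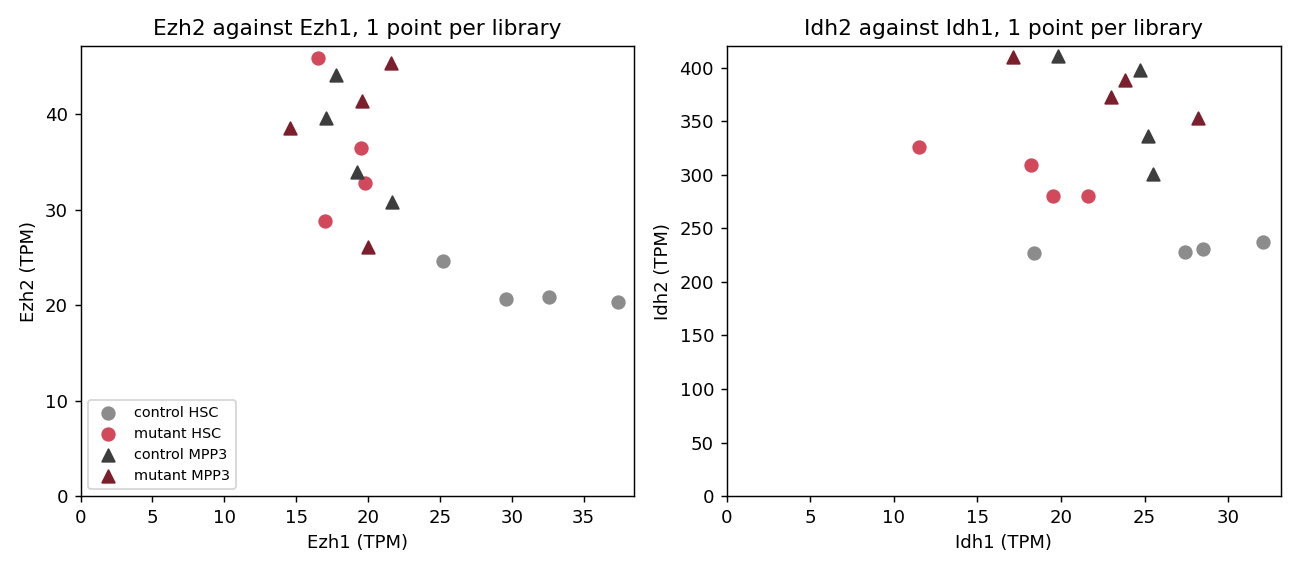
TPM of Ezh2 against Ezh1 (left) and of Idh2 against Idh1 (right), 1 point per library, axes from 0. The control HSC libraries lie at high Ezh1 and low Ezh2 in the left panel, and at Idh2 levels of 227 to 237 TPM, below all other libraries, in the right panel.

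Asxl1, the partner of Bap1, lies at chr2:153345829-153404007. It had 35.9, 49.7, 49.1 and 58.5 CPM in control HSC, 41.2, 31.1, 36.3 and 46.6 in mutant HSC, 53, 59.3, 50.0 and 52 in control MPP3 and 49.4, 49.4, 51.2 and 57.3 in mutant MPP3. Control and mutant HSC overlapped, and the mutant HSC libraries were all below the mutant MPP3 libraries. The log2 fold change was -0.32 ± 0.15 in mutant HSC (adjusted p = 0.222), lower in 3 of 4 batches, and 0.42 ± 0.15 in mutant MPP3 against mutant HSC (adjusted p = 0.0986).
Of 12 tested genes of the Bap1 complex and Asxl paralogs, 1 rose in edgeR in mutant HSC and in control MPP3 against control HSC, where 4.56% and 6.67% of all genes were called higher. It was Hcfc1, a chromatin scaffold protein, at 0.46 ± 0.12 in mutant HSC (adjusted p = 0.0229) and 0.63 ± 0.12 in control MPP3 (adjusted p = 0.00127). The call in mutant HSC was lost without control HSC library 3, mutant HSC library 1 or mutant HSC library 2 (adjusted p of 0.0624, 0.0827 and 0.0518).

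Among the splicing genes, U2af1, the small subunit of the factor that reads the AG at the end of introns, lies at chr17:31647081-31658892. It had 136, 140.3, 137 and 119 CPM in control HSC and 167, 197, 144 and 206 in mutant HSC. In control MPP3 it had 179.9, 147, 164 and 160.1 CPM and in mutant MPP3 224, 213, 154 and 226. All mutant HSC libraries were above all control HSC libraries, though library 3 by little, and mutant MPP3 library 3 lay inside the control range.

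The log2 fold change of U2af1 was 0.42 ± 0.13 in mutant HSC (fold 1.34, adjusted p = 0.0598), higher in 4 of 4 batches. It was 0.33 ± 0.13 in mutant MPP3 (fold 1.26, adjusted p = 0.261), higher in 3 of 4 batches. In control MPP3 against control HSC it was 0.29 ± 0.13 (adjusted p = 0.164). In mutant HSC it was called in 6 of 26 alternative settings, among them without mutant HSC library 3 (0.54, adjusted p = 0.0111) and in DESeq2 (adjusted p = 0.0189).

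Srsf2, an SR protein that binds exonic splicing enhancers, lies at chr11:116849901-116853094. It had 119, 167, 164 and 204 CPM in control HSC, 161, 133, 106 and 108 in mutant HSC, 136, 155, 128 and 135 in control MPP3 and 119.8, 129.7, 119 and 127 in mutant MPP3. Control HSC spread widely and overlapped every other group. The log2 fold change was -0.36 ± 0.15 in mutant HSC (adjusted p = 0.151), where batch 1 went the other way from the other 3, and -0.16 ± 0.15 in mutant MPP3 (adjusted p = 0.7), lower in 4 of 4 batches. Exons of Mettl23 and Mfsd11 on the other strand cover 460 and 288 of the 2958 exonic bases of Srsf2. The sources used here do not give the strand setting of the counting, so reads there cannot be told apart. The same holds for 174 of 6678 bases of Ezh2 (Gm26625), 133 of 16642 of Dnmt3a (Dnmt3aos), 197 of 7444 of Asxl1 (2500004C02Rik) and 43 of 16870 of Tet2 (Gm42567).

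Sf3b1, the largest subunit of the SF3B complex at the branch point, lies at chr1:54985169-55027481 and varied least. It had 381, 399.6, 384 and 378 CPM in control HSC, 404, 436, 373 and 413 in mutant HSC, 459, 461, 495 and 404 in control MPP3 and 465, 531, 449 and 463 in mutant MPP3. Every MPP3 library was above every HSC library of its genotype. The log2 fold change from HSC to MPP3 was 0.24 ± 0.08 in control mice (adjusted p = 0.0635, and 0.0469 with the replicate number as a block) and 0.23 ± 0.08 in mutant mice (adjusted p = 0.1). Mutant and control HSC differed by 0.08 ± 0.08 (adjusted p = 0.67).

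Of 27 other tested genes of U2 snRNP and branch point recognition, edgeR called 3 higher and none lower in mutant HSC, beside 4.56% and 2.74% of all genes, with a list median of 0.13. DESeq2 called 6 higher. The edgeR count was 1 without control HSC library 2 or mutant HSC library 1, and 5 without mutant HSC library 3, control MPP3 library 2 or mutant MPP3 library 1, 3 or 4. Sf3b5, another SF3B subunit, rose by 0.41 ± 0.08 (adjusted p = 0.00532), Sf3a3 of the SF3A complex by 0.51 ± 0.12 (adjusted p = 0.0145) and Snrpa1 of the U2 particle by 0.44 ± 0.12 (adjusted p = 0.0363). The Sf3a3 call was lost without mutant HSC library 1 (adjusted p = 0.0572). It stood at an adjusted p of 0.05 without control HSC library 2, and that of Snrpa1 was lost without control HSC library 2 or 3 or mutant HSC library 1, 2 or 4 (adjusted p of 0.0586 to 0.107). Of 20 tested SR proteins and their kinases, 2 rose in edgeR in mutant HSC and the same count in control MPP3 against control HSC, where 4.56% and 6.67% of all genes were called higher. In mutant HSC DESeq2 called 5 higher and 1 lower, and edgeR called 6 higher without mutant HSC library 3 and 2 lower without mutant HSC library 1. Srpk1, a kinase of SR proteins, rose by 0.33 ± 0.09 in mutant HSC (adjusted p = 0.0392), and Srsf1, an SR protein, by 0.47 ± 0.13 (adjusted p = 0.0405). Both calls were lost without control HSC library 2 or 3 or mutant HSC library 1, 2 or 4, and that of Srsf1 also without control HSC library 1 or 4 (adjusted p of 0.0564 to 0.109). From control HSC to control MPP3, Srpk1 rose by 0.43 ± 0.09 (adjusted p = 0.00451) and Srsf1 by 0.53 ± 0.13 (adjusted p = 0.0139, 0.0515 without control MPP3 library 2).

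The pair of isocitrate dehydrogenases had opposite signs in mutant HSC. Idh2, at chr7:80094846-80115392, had 319, 302, 320.3 and 295 CPM in control HSC and 348, 437, 466 and 374 in mutant HSC. In control MPP3 it had 544, 569, 439 and 383 CPM and in mutant MPP3 522, 575, 472 and 559. The control HSC libraries were close together and below all others.

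Idh2 rose by 0.65 ± 0.12 from control HSC to control MPP3, a fold of 1.56 (adjusted p = 0.00171), in 4 of 4 batches. In mutant HSC its log2 fold change was 0.39 ± 0.12, a fold of 1.31 (adjusted p = 0.0602), higher in 4 of 4 batches. It was called there in 8 of 26 alternative settings, among them a fit on the HSC libraries alone (adjusted p = 0.0375). In mutant MPP3 against mutant HSC the value was 0.39 ± 0.12 (adjusted p = 0.0591), and in mutant against control MPP3 0.14 ± 0.12 (adjusted p = 0.686).

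Idh1, at chr1:65158616-65186500, had 43.4, 28.4, 41.7 and 46.1 CPM in control HSC and 32.0, 17.4, 28.6 and 28 in mutant HSC. In control MPP3 it had 40.0, 33.1, 39.0 and 37.7 CPM and in mutant MPP3 38.7, 27.6, 43.9 and 39.3. Library 2 was the lowest in each of the 4 groups, and control HSC library 2 lay inside the mutant HSC range.

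The log2 fold change of Idh1 in mutant HSC was -0.59 ± 0.19, a fold of 0.665 (adjusted p = 0.0774), and the values within batches ran from -0.72 to -0.44. With the replicate number as a block it was -0.60 and passed the test (adjusted p = 0.00845), and without control HSC library 2 it was -0.71 and passed too (adjusted p = 0.0461). In mutant MPP3 against mutant HSC it was 0.49 ± 0.19 (adjusted p = 0.147), and 0.51 with the block (adjusted p = 0.0182). Mutant and control MPP3 had about the same mean, 37.3 ± 6.93 and 37.4 ± 3.03 CPM (SD, n = 4).

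In TPM, the ratio of Idh2 to Idh1 was 8.33, 12.3, 8.12 and 7.37 in control HSC and 13.0, 28.4, 17.0 and 14.3 in mutant HSC. It was 16.1, 20.8, 13.3 and 11.8 in control MPP3 and 16.3, 24, 12.5 and 16.3 in mutant MPP3. The ratio was above that of any control HSC library in all mutant HSC libraries (exact two-sided permutation p = 0.0286, 0.0762 after adjustment over the 8 ratio tests).
Of 15 other tested genes of citrate and 2-oxoglutarate metabolism, 2 rose in edgeR in mutant HSC and 3 in control MPP3 against control HSC, where 4.56% and 6.67% of all genes were called higher. The count in mutant HSC was 5 without mutant HSC library 3 and 4 in DESeq2. That in control MPP3 was 0 without control HSC library 2, 3 or 4 or control MPP3 library 1 or 2. Idh3a, a subunit of the third, NAD-dependent isocitrate dehydrogenase, rose in mutant HSC by 0.58 ± 0.13 (adjusted p = 0.00963). Citrate synthase, Cs, rose by 0.32 ± 0.09 (adjusted p = 0.0459), a call lost without control HSC library 1, 2 or 4, mutant HSC library 1 or 2 or control MPP3 library 3 (adjusted p of 0.0502 to 0.121).

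Trp53, at chr11:69580359-69591873, was the most abundant of the 10 per length. It had 690, 725, 705 and 615 CPM in control HSC, 548, 811, 870.1 and 647 in mutant HSC, 868, 873, 890.4 and 683 in control MPP3 and 746, 885, 810.5 and 808 in mutant MPP3. Mutant HSC were split: library 1 was below all controls, library 4 inside their range, and libraries 2 and 3 above it. No comparison passed the test: the log2 fold change was 0.07 ± 0.13 in mutant HSC (adjusted p = 0.824), -0.03 ± 0.13 in mutant MPP3 (adjusted p = 0.965) and 0.28 ± 0.13 from control HSC to control MPP3 (adjusted p = 0.171), higher in 4 of 4 batches.

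Of 17 tested p53 regulators, 1 rose in edgeR in mutant HSC and the same gene in control MPP3 against control HSC, where 4.56% and 6.67% of all genes were called higher. It was Chek1, the checkpoint kinase of replicating cells, at 0.80 ± 0.18 (adjusted p = 0.0135) and 0.97 ± 0.18 (adjusted p = 0.00179). Of 33 tested p53 target genes, edgeR called none higher and 2 lower in mutant HSC, beside 4.56% and 2.74% of all genes, with a list median of -0.31 against -0.06 for all genes. DESeq2 called 3 higher and edgeR with the replicate block 1. In edgeR, 2 were called higher when control MPP3 library 2 or any 1 of the mutant MPP3 libraries was left out. Xpc, which senses DNA damage for excision repair, had -0.43 ± 0.11 (adjusted p = 0.0229), and Gadd45a, a growth arrest gene, -1.04 ± 0.28 (adjusted p = 0.0298). Both calls were lost without control HSC library 1 or 2 or mutant HSC library 1 or 2. That of Xpc was also lost without control HSC library 4 or mutant HSC library 3, and that of Gadd45a without control HSC library 3 or mutant HSC library 4 (adjusted p of 0.0529 to 0.112 over all of these). From control HSC to control MPP3, edgeR called 2 p53 targets higher and 1 lower, beside 6.67% and 6.91% of all genes. From mutant HSC to mutant MPP3 it called 2 higher and 2 lower, beside 3.69% and 4.68%. The list medians were 0.07 and -0.03. Xpc was among those higher in both genotypes (0.55 ± 0.11 and 1.01 ± 0.11, adjusted p = 0.00248 and 1e-05), and Ak1 was called lower in both.

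Jak2 itself, at chr19:29251828-29313080, had 15.0, 20.7, 22.0 and 29.3 CPM in control HSC and 27.4, 30.0, 18.2 and 27.8 in mutant HSC, with overlap (0.25 ± 0.23, adjusted p = 0.604). In MPP3 it had 18.5, 27.9, 21.4 and 30.8 CPM in controls and 21.7, 23.2, 32.5 and 20.3 in mutants (-0.02 ± 0.23, adjusted p = 0.998). Gene counts do not separate the mutant allele from the normal one, so these values do not check the genotype labels.

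Of 33 tested other genes that are recurrently mutated in myeloid neoplasms, edgeR called 3 higher and 1 lower in mutant HSC. These stand beside 4.56% and 2.74% of all genes. The count called higher was 0 without control HSC library 2 or 4 or mutant HSC library 1 or 2, and 4 in DESeq2. The count called lower was 5 in DESeq2 and 5 in edgeR with the replicate number as a block. Smc3, a cohesin subunit, rose in mutant HSC by 0.39 ± 0.10 (adjusted p = 0.0277) and Calr, the chaperone calreticulin, by 0.50 ± 0.15 (adjusted p = 0.0476). The Smc3 call was lost without control HSC library 2 or 4 or mutant HSC library 1 or 2 (adjusted p of 0.0501 to 0.0935). That of Calr was lost in 13 of 26 settings, among them without any 1 of the HSC libraries other than mutant HSC library 3, and without control MPP3 library 3 or 4 (adjusted p of 0.0514 to 0.169). Between control HSC and control MPP3, edgeR called 5 of the list higher and 4 lower, beside 6.67% and 6.91% of all genes. Calr was among those higher, at 0.70 ± 0.15 (adjusted p = 0.00401).

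Over the 9 pathway lists together, 178 genes were tested in addition to the 10. In mutant HSC edgeR called 22 of them, where it called 7.3% of all genes. DESeq2 called 43 there, where it called 1668 genes in all. In mutant against control MPP3 edgeR called 1, where it called 0.0635% of all genes. DESeq2 called 8 there, where it called 386 genes in all. The edgeR count was 28 in control MPP3 against control HSC (13.6% of all genes) and 19 in mutant MPP3 against mutant HSC (8.36%). Without mutant HSC libraries 1 and 4, Uhrf1 was the only call in mutant HSC on the DNA methylation list, and the PRC2, Bap1, U2, SR protein, citrate and p53 lists held none.

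The genes whose level followed each of the 10 most closely over the 16 libraries were found among 9688 genes that averaged 5 CPM or more. The points share genotype, cell type and batch, and differences within and between groups were not separated. Nearest to Ezh2 was Ncapd2, a condensin subunit (Pearson r of 0.902), followed by Mrpl19 (0.891) and Nans (0.888). Nearest to Idh2 was Apobec3 (0.949), followed by Ndufb2 (0.938) and Trim28 (0.93), and nearest to U2af1 was Ruvbl2 (0.95), followed by Ddx56 (0.946) and Kars (0.944).

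Dnmt3a was closest to Rp2 (0.893), Itgam (0.831), an integrin of myeloid cells, and Zfp599 (0.826). Srsf2 was closest to Clk1 (0.799), a kinase of SR proteins, Prdm4 (0.761) and Clk4 (0.726), another kinase of the same family. Sf3b1 was closest to Foxn2 (0.903), Tkt and Tmsb10 (0.861 each), and Idh1 to Pcp4l1 (0.856), Selenop (0.841) and Evi2b (0.839). For Trp53 these were Raver1 (0.888), Ints1 (0.875) and Ttyh3 (0.872), for Asxl1 Epb41l3 (0.875), Piezo1 (0.819) and Dpp4 (0.814), and for Tet2 Arid4a (0.793), Tnrc6b (0.762) and Pop1 (0.758).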

How the data were processed

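Per the labels' protocols, RNA of sorted cells was turned into cDNA with a SMARTer Ultra Low kit and sequenced as read pairs. Per the submitters' processing notes, the authors used cutadapt 4.0, FastQC, HISAT2 and Salmon with GRCm38. No source used here gives the transcript set, the strand setting or the other versions. The authors deposited 1 Salmon gene table per library. Per the file headers these hold estimated counts per gene (not normalized), TPM (per effective length and library total) and effective lengths in bases.

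Of 31716 rows in a table, 29806 name a gene and were used. The other 1910 name a transcript. Of these, 49 belonged to a gene with its own row and were added to it in 1 alternative. None of the 49 belonged to a gene of the lists, so that alternative left the counts of the 10 genes unchanged. Gene symbols and positions are those of GENCODE M21 (GRCm38). All 10 genes had a row, and their lowest count in a library was 425. Expected counts were rounded and tested with edgeR 4.0.16 in R 4.3.3 (TMM, filterByExpr by group, robust glmQLFit, glmQLFTest) in 1 model with 4 group coefficients over 16 libraries, with Benjamini-Hochberg adjustment over 14179 genes. The 4 pairwise comparisons and the difference of the mutant effects were tested. Ratios and lengths were compared by exact two-sided permutation tests in SciPy 1.17.1, which did not use the pairing by batch. Promoters came from the RefSeq table (GRCm38.p6), in which all 10 genes matched, with 14 starts. The code was tested on simulated data.

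Alternatives were DESeq2 1.42.0, limma-voom (limma 3.58.1), RLE size factors, the replicate block, no filter, effective-length offsets, mitochondrial, ribosomal and haemoglobin genes left out, transcript rows added, the compared groups alone, and libraries left out. The replicate number is the batch in the labels, which pairs the libraries. Over 24 pairs of same-numbered libraries, deviations from the group means had r from -0.032 to 0.164, and 17 correlated best with their own number. Named beside the 10 genes are Jak2, up to 3 called genes of each pathway list with the smallest adjusted p, and the 3 genes with the highest correlation to each of the 10. Tet1, Tet3, Tdg, Cxxc5 and Eed were added after their values were seen. A result that the rule covers is not reported here. The 10 genes and the lists (276 symbols, 274 matched) were chosen with earlier results of these data known.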

Additional observations from a re-analysis of the deposited data

Results flagged for a closer look

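Trp53 in control MPP3 had 1 library far from the others. Library 4 had 683 CPM, while libraries 1, 2 and 3 had 868, 873 and 890.4 CPM. The gap to the nearest library, as a share of the range, was above the critical value for 4 samples. The 10 genes in 4 groups gave 40 such looks and this was the only 1 to pass, where chance passes about 5% of groups. Library 4 was also the lowest of the 4 control HSC libraries for Trp53 (615 CPM). It was not the lowest in mutant HSC (647 CPM, against 548 in library 1) or in mutant MPP3 (808 CPM, against 746 in library 1).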

How the results depend on the processing

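Over the 10 genes, the 5 comparisons and the alternative settings, 1258 values kept their side of the threshold, 31 moved past it, 1 fell short of it (Ezh2 in mutant HSC without mutant HSC libraries 1 and 4) and no called value changed sign. Dnmt3a, Ezh2 and Idh2 were called in control MPP3 against control HSC in 26 of 26 settings.

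With the replicate number as a block, which uses the pairing by batch, edgeR called 2 of the 10 genes in mutant HSC (Ezh2 and Idh1). It called 1394 genes in all there. In mutant MPP3 against mutant HSC it called 1 of the 10 (Idh1). Over all genes it called 82 in mutant MPP3 and 1 in the difference of the mutant effects. Beside Idh1 and Sf3b1 it changed no call of the 10. In mutant HSC, of the 10 genes, DESeq2 called 4, the fit on the compared groups alone 2, the fit without mutant HSC libraries 1 and 4 called 0, and leaving out 1 library gave 1 to 3. In mutant MPP3 against mutant HSC, DESeq2 and limma-voom called 1 of the 10 each, effective-length offsets 2, and leaving out 1 library gave 0 to 1. In control MPP3 against control HSC that range was 3 to 4.

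Over all genes, the count called in mutant HSC was 1035, 1668 in DESeq2, 266 without mutant HSC libraries 1 and 4, and 605 to 1412 with 1 library left out (605 without mutant HSC library 1, 622 without mutant HSC library 4, 634 without control HSC library 2). In mutant MPP3 it was 9, 386 in DESeq2, 1 with no filter, 16 with effective-length offsets, 0 in the compared groups alone, 1 without mutant HSC libraries 1 and 4, and 1 to 209 with 1 library left out, 209 being without mutant MPP3 library 3. In mutant MPP3 against mutant HSC it was 1186, 776 without mutant HSC libraries 1 and 4, and 917 to 1177 with 1 library left out. In control MPP3 against control HSC that range was 1396 to 2184 around 1926. For the difference of the mutant effects it was 6, 78 in DESeq2, 0 without mutant HSC libraries 1 and 4, and 1 to 5 with 1 library left out. With 4 libraries a group, the exact tests cannot go below 0.0286. Tet2, with the fewest reads per length, had the largest standard errors of the list.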
